A study of Mus musculus with 7 samples.

Results

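Cyclin-dependent kinase inhibitors and the genes that act with them in cell cycle arrest and senescence were examined in microglia of young and old mice after stroke. The group holds 10 of the 50686 genes listed in each library, taken by symbol: the inhibitors Cdkn1a, Cdkn1b, Cdkn1c, Cdkn2a, Cdkn2b, Cdkn2c and Cdkn2d, the tumor suppressors Trp53 and Rb1, and Lmnb1, which encodes lamin B1 of the nuclear envelope. Microglia were sorted by FACS, with antibodies to CD11b and CD45, from the forebrain of C57BL/6 male mice, and cells stained by Bodipy, a dye for the neutral lipid of lipid droplets, were kept. The young group comprised 4 mice of 3 to 4 months (14C, 18C, 23C and 29C) and the old group 3 mice of 21 to 22 months (2posI, 3posI and 4posI). All 7 mice had undergone transient occlusion of the middle cerebral artery 4 days earlier, none received an experimental drug, though analgesia was given at surgery, and each library came from 1 mouse. Age was therefore compared within ischemic, lipid droplet-rich microglia, and microglia of sham-operated mice or without lipid droplets were not analysed here. Expected counts summed to between 45379786 and 53002386 per young library and between 36574083 and 46133564 per old library.

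Cells leave the cell cycle when inhibitor proteins block the cyclin-dependent kinases. The INK4 inhibitors, encoded by the Cdkn2 genes, bind Cdk4 and Cdk6, whereas the Cip/Kip inhibitors, encoded by the Cdkn1 genes, bind a wider range of cyclin and kinase complexes. Blocked kinases leave the retinoblastoma protein, product of Rb1, bound to E2F factors, and p53, product of Trp53, induces Cdkn1a after DNA damage. In long-lasting arrest, termed senescence, Cdkn2a and Cdkn1a are often raised, lamin B1 is often lost, and many cells secrete cytokines and proteases. Cdkn2a encodes p16Ink4a from its proximal start site and, from a distal start site and in another reading frame, p19Arf, which stabilizes p53.

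The microglial identity of the libraries was examined before the comparison. All 9 microglial markers used, among them P2ry12 and Tmem119, were detected in every library. Their summed level in TPM, a unit scaled by transcript length and library total, lay between 7261 and 12132 in the young libraries, and was 7571 in 2posI and 8154 in 4posI but 3401 in 3posI. Library 3posI stood apart in other ways too. Its 7 monocyte markers summed to 1852 TPM, led by Chil3 at 1217 TPM, against 17 to 118 TPM in the other libraries, and its 7 border macrophage markers summed to 1765 TPM, led by Ms4a7 at 598 TPM, against 157 to 541 TPM. The 7 neutrophil markers, led by S100a8, summed to 13.1, 40.1, 49.5 and 327 TPM in the young and 92.1, 171 and 305 TPM in the old libraries. The 7 T cell markers, led by Lck, reached only 0.39 to 1.08 TPM in the young but 1.14, 6.23 and 4.83 TPM in 2posI, 3posI and 4posI. The summed markers of oligodendrocytes (led by Cnp) were between 72.4 and 86.9 TPM and those of astrocytes (Slc1a3) between 26 and 70.2 TPM. Those of endothelial cells (Cldn5) were between 48.1 and 109 TPM in young and between 33.4 and 44.4 TPM in old libraries, without overlap. The markers of B cells (Cd79b) stayed at or under 25.4 TPM, of oligodendrocyte precursors (Cspg4) at or under 29.8 TPM, of pericytes (Vtn) at or under 18.4 TPM and of neurons (Rbfox3) at or under 2.75 TPM, and the B cell factor Pax5 was at 0 in all 7. The main values are therefore also given without 3posI. Elsewhere in the study, microglia were gated as CD11b+ CD45low in flow cytometry and sorting. The gate for these male mice was not stated separately in the text read here. Whether cells other than microglia contributed to a difference in the genes below was not tested, and in bulk libraries fewer cells of a type and less RNA per cell cannot be told apart.

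Both Cdkn2a and Cdkn1a are transcribed from more than one start site, and the start sites bear on the results for these genes. Their promoter windows, 250 bases before to 50 bases after each start, are shown from RefSeq on GRCm38.p6, written 5′ to 3′ on the strand of the gene. Capitals mark the Sp1 box GGGCGG on either strand and matches to the p53 half-site, searched on both strands.
Cdkn2a proximal (Ink4a) start, chr4:89282143-89282442, minus strand: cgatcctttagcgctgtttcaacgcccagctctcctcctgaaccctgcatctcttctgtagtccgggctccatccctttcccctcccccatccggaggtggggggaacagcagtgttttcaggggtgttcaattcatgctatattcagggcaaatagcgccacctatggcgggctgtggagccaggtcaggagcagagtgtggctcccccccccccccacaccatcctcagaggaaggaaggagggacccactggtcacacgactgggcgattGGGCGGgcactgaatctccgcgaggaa
Cdkn2a distal (Arf) start, chr4:89294570-89294869, minus strand: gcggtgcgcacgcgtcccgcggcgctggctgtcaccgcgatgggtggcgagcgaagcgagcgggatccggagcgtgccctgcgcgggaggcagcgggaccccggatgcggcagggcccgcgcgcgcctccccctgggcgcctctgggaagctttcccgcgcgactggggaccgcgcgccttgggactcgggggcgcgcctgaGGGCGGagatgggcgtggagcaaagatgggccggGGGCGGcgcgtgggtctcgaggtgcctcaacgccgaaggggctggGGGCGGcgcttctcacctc
Cdkn1a proximal start, chr17:29093519-29093818, plus strand: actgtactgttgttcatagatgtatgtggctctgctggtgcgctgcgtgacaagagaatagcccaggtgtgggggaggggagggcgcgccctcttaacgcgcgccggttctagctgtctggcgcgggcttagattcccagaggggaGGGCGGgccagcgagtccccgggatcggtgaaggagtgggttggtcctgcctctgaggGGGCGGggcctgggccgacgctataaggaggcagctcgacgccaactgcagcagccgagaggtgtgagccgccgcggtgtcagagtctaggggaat
Cdkn1a distal start, chr17:29090729-29091028, plus strand: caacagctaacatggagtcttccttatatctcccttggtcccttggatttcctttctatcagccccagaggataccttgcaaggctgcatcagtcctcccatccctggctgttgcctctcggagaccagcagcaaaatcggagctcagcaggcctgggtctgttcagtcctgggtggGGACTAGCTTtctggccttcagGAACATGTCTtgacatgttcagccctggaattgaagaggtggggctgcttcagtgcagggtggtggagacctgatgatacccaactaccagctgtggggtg

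The Ink4a window held 1 Sp1 box and the Arf window 3, the proximal Cdkn1a window held 2 and the distal Cdkn1a window 0. The box occurred in 35.7% of the 32851 windows of the table. The distal Cdkn1a window held 2 matches to the p53 half-site, which occurred in 8.36% of all windows, and the other 3 windows held 0. None of these 4 windows held TATAAA, the STAT-type letters TTCNNNGAA or the E2F-type letters TTTCGCGC and TTTGGCGC, all searched on both strands and found in 13.6%, 8.3% and 0.813% of all windows. The windows differed in base composition, with 45 CG dinucleotides and 77% G and C in the Arf window, 12 and 60.3% in the Ink4a window, 23 and 64.7% in the proximal Cdkn1a window, and 2 and 54.7% in the distal one. These matches describe letters only. Windows were given for 7 of the 10 genes, 10 windows in all.

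With edgeR's quasi-likelihood test of old against young mice, 0 of the 10 genes passed an adjusted p of 0.05, while 141 of 17559 autosomal genes did (100 higher and 41 lower in old mice), or 0.803%. At an unadjusted p under 0.05 the members were 2 of 10, Cdkn1a and Cdkn2c, beside 18.9% of all genes tested. The libraries of both ages did not overlap in 2 of 10 members, Cdkn1a and Rb1, beside 17.7% of all genes tested. These shares were close to those of all genes. The median log2 fold change of the members was 0.05, against -0.01 over all genes tested. limma-voom called 0 members and DESeq2 called 1, Cdkn1a, beside 0.814% and 9.07% of the genes each tested. The replicates of this comparison were spread widely, with a biological coefficient of variation of 37.2%.

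**Figure D1:**
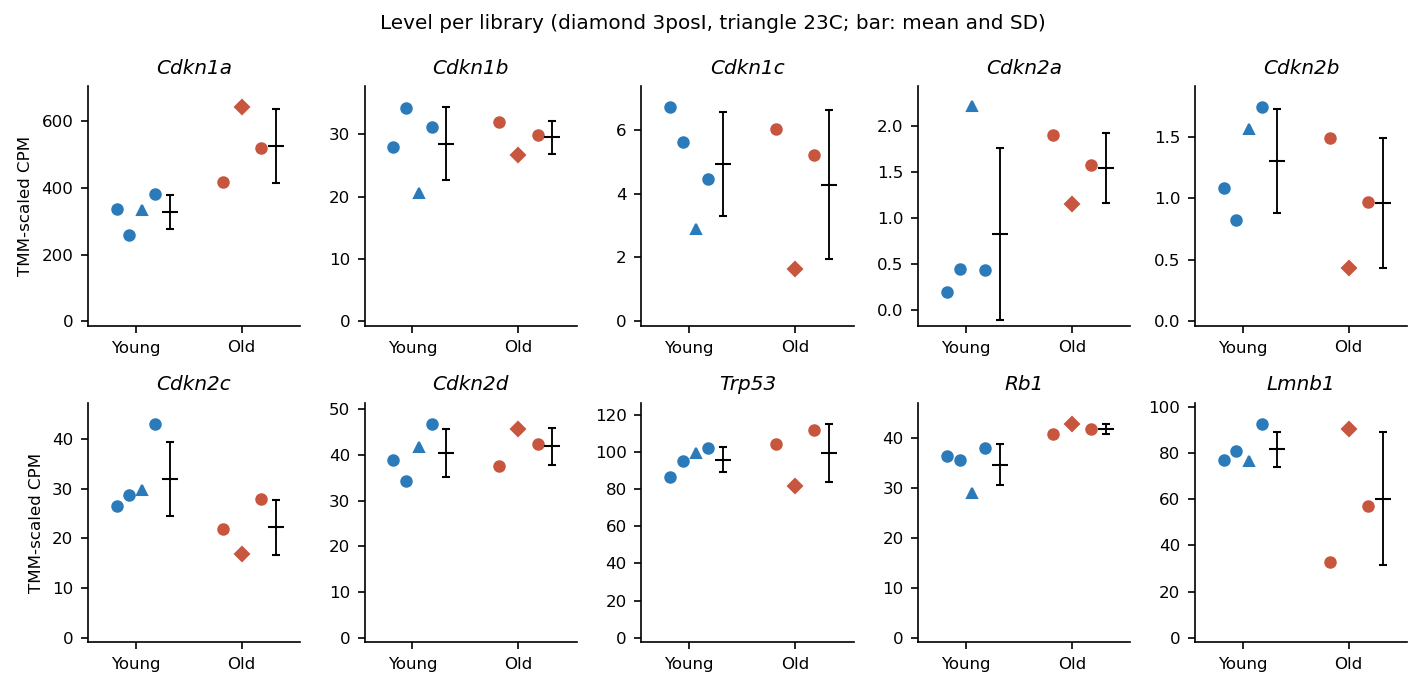
TMM-scaled CPM (vertical axis, from 0) of the 10 genes in 4 young (blue) and 3 old (red) libraries, with the mean and SD of each age as a black bar, a triangle for young mouse 23C and a diamond for old mouse 3posI. The old libraries lie above all young ones for Cdkn1a and Rb1, and the ages overlap for the other 8 genes.

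Expression differed widely among the inhibitors. Per length, Cdkn1a was by far the most abundant of the 7 inhibitor genes, at 463 ± 48.6 TPM (SD, n = 4) in young and 792 ± 195 TPM (SD, n = 3) in old microglia. Cdkn2d, the p19 INK4 gene, followed at 42.6 ± 3.99 and 42.2 ± 6.5 TPM, and Cdkn2c, the p18 INK4 gene, at 24.4 ± 4.3 and 17.9 ± 5.1 TPM. Cdkn1a was above Cdkn2d and Cdkn2d above Cdkn2c in 7 of 7 libraries, without overlap of their ranges. Cdkn2c and Cdkn1b, the p27 gene, had overlapping ranges, in the order given in 6 of 7 libraries. Cdkn1b, at a mean of 16.1 TPM over all libraries, lay above Cdkn1c, the p57 gene, at 5.7 TPM in every library. Cdkn2a and Cdkn2b, the p15 gene, were the lowest, at 1.83 and 1.16 TPM, by their means, and could not be ordered, since Cdkn2a was the higher in only 4 of 7 libraries. The ranges of Cdkn1c and Cdkn2a overlapped as well, with Cdkn1c the higher in 5 of 7 libraries. Cdkn1a made up 84.8%, 81.1%, 84.7% and 83% of the summed TPM of the 7 genes in 14C, 18C, 23C and 29C, and 87.6%, 92.6% and 89.7% in 2posI, 3posI and 4posI. Its share was thus higher in every old than in every young library. Without Cdkn1a, the other 6 genes summed to 86.3 to 102 TPM in young and 75.3 to 98.2 TPM in old libraries, which overlapped.

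**Figure D2:**
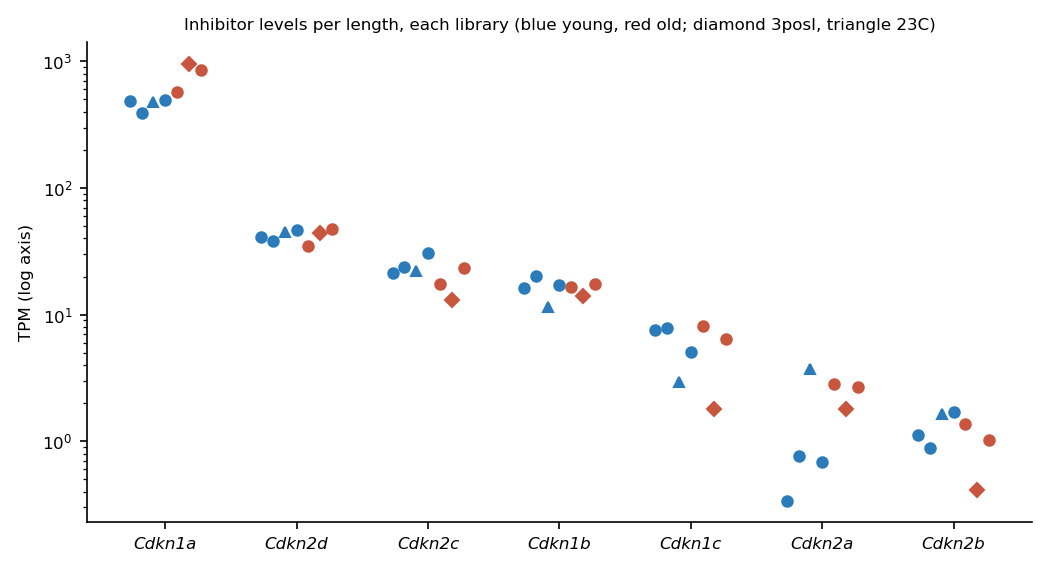
TPM (vertical log axis) of the 7 inhibitor genes in each library, ordered by their mean over all libraries, with young mice in blue, old mice in red, a triangle for 23C and a diamond for 3posI. Cdkn1a lies between 391 and 947 TPM, above every other inhibitor, and Cdkn2a and Cdkn2b have the lowest means, with ranges that overlap each other, and the range of Cdkn2a overlaps that of Cdkn1c.

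Among the Cip/Kip genes, Cdkn1a, which encodes p21, had the smallest p of the 10 genes. The gene lies on the plus strand of chromosome 17 (chr17:29090976-29100727, GRCm38). Its CPM, expected counts scaled by library total and TMM factor, were 337, 260, 334 and 381 in young mice 14C, 18C, 23C and 29C, and 417, 642 and 519 in old mice 2posI, 3posI and 4posI. Every old library was above every young one, and 3posI was the highest. The mean was 328 ± 50.2 CPM (SD, n = 4) in young and 526 ± 112 CPM (SD, n = 3) in old mice, a log2 fold change of 0.68 ± 0.19 (SE) with an edgeR adjusted p of 0.123, so the difference did not pass the test across all genes. With DESeq2 it did (log2 fold change 0.69, adjusted p = 0.0171). Without 3posI, the library rich in monocyte markers, the log2 fold change was 0.51 with an edgeR adjusted p of 0.199. In TPM the difference was 0.75 ± 0.19 (SE) on the log2(TPM + 0.1) scale, with a limma adjusted p of 0.111, and limma on this scale called 0 members beside 0.404% of all genes tested. The mean length of the transcripts to which RSEM assigned the reads of Cdkn1a also differed by age. It was 1018, 1007, 1034 and 1051 bases in the young and 939, 909 and 914 bases in the old libraries, without overlap. The annotated transcripts starting at the distal, the proximal and an internal start measure 922, 1913 and 1172 bases. Shares of the 3 cannot be solved from a single mean, and a mean below 922 bases shows that the lengths the authors used differ from those of the GENCODE vM21 release used here. The unclassified gene AC167363.2, on the opposite strand, shares 273 exonic bases with Cdkn1a and was not analysed here.

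Cdkn1b and Cdkn1c showed no such separation. Cdkn1b (chr6:134920401-134925513), which encodes p27, an inhibitor kept high in many resting cells, was at 28, 34.2, 20.6 and 31.2 CPM in the young and 32.1, 26.8 and 29.8 CPM in the old libraries. All old values fell inside the young range, and the log2 fold change was 0.05 ± 0.18 (SE, edgeR adjusted p = 0.899). Cdkn1c (chr7:143458339-143461050), an imprinted gene that encodes p57, was at 6.71, 5.64, 2.9 and 4.45 CPM in the young and 6.02, 1.64 and 5.2 CPM in the old libraries, with the lowest value in 3posI. The log2 fold change was -0.20 ± 0.45 (SE, edgeR adjusted p = 0.842), and 0.19 without 3posI (edgeR adjusted p = 0.806). An antisense gene, Gm44732, shares 625 exonic bases with Cdkn1c, and its expected counts were between 0 and 3.93, beside 64.1 to 310 for Cdkn1c. The libraries carry no strand, so reads of the pair cannot be told apart.

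The imprinted domain around Cdkn1c was described from a list of 9 genes, of which 8 were tested, 4 were higher and 4 lower in old mice, and 0 passed the test. Without 3posI, 6 were higher and 2 lower. Kcnq1ot1, the noncoding RNA that silences genes of this domain on the paternal copy, was at 15.6 to 23.5 CPM in young and 17.3 to 23.6 CPM in old libraries. Kcnq1, a potassium channel gene, had expected counts of 12, 5, 58.7 and 21.9 in the young and 0, 1.4 and 0 in the old libraries, without overlap, but with an edgeR adjusted p of 0.0895. Phlda2, a growth-restraining gene, had at most 4 counts and was not tested. Cd81, a tetraspanin gene, and Nap1l4, a histone chaperone gene, were well expressed, at 1079 to 3773 CPM and 97 to 109 CPM over all libraries, with overlapping ages. Tssc4 was at 30.4 to 54.5 CPM, Slc22a18 at 0.13 to 0.84 CPM, the growth factor gene Igf2 at 0.57 to 2.27 CPM and the noncoding H19 at 0 to 0.57 CPM, and the ages overlapped for each of these.

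Among the INK4 genes, Cdkn2a (chr4:89274471-89294653, minus strand) was counted at a low level in every library. Its expected counts were 9, 20, 113 and 20 in 14C, 18C, 23C and 29C, and 64, 45 and 73 in 2posI, 3posI and 4posI, which gave 0.19, 0.45, 2.22 and 0.43 CPM in young and 1.91, 1.15 and 1.58 CPM in old mice. The 3 old libraries were above 3 of the 4 young libraries, but young mouse 23C was the highest of all 7. The log2 fold change was 0.90 ± 0.75 (SE, edgeR adjusted p = 0.546), and 1.42 and 2.18 by limma-voom without and with sample quality weights (adjusted p = 0.297 and 0.0965). Leaving out 23C gave 2.10 ± 0.48 (SE), still not past the threshold at an edgeR adjusted p of 0.122. Without 3posI it was 1.07 and without 14C it fell to 0.58 (edgeR adjusted p = 0.539 and 0.740). With 1 library left out, it ranged from 0.58 to 2.10.

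The reads of Cdkn2a were then divided between its transcripts, a step chosen after the values were seen. The annotation holds 2 transcripts, Cdkn2a-201 of 852 bases from the proximal start at position 89282192 of chromosome 4, which encodes p16Ink4a, and Cdkn2a-202 of 895 bases from the distal start at 89294653, which encodes p19Arf. Of these, 277 and 320 bases are not shared. RSEM's mean length lies between both in proportion to their abundance, so the level of each follows from it. The deposited mean length matched the annotation used here, within 0.5 bases, in 3225 of 3428 genes with 2 transcripts and a library at 0 TPM. Cdkn2a, above 0 TPM in every library, was not among these genes. The neighboring Cdkn2b, with 1 transcript, had a deposited length of 1393 bases against 1390 in the annotation used here. Cdkn2a-201 came to 0.34, 0.18, 0.24 and 0.28 TPM in the young libraries and 1.79, 1.31 and 0.85 TPM in the old libraries. Each old library was above each young library, with means of 0.26 ± 0.069 TPM (SD, n = 4) and 1.32 ± 0.47 TPM (SD, n = 3). Cdkn2a-202 came to 0, 0.59, 3.47 and 0.4 TPM in the young and 1.06, 0.48 and 1.85 TPM in the old libraries, which overlapped. The distal start thus took 0%, 76.9%, 93.6% and 58.1% of the abundance in 14C, 18C, 23C and 29C, against 27.1% to 68.4% in the old libraries. Among all transcripts of genes with 2 transcripts, 12.1% of 3852 did not overlap between the ages, and among the 6 transcripts of the members with 2 transcripts 2 did not, Cdkn2a-201 and Lmnb1-202. Behind the Cdkn2a-201 levels stood estimates of only 4.43 to 9 reads per young and 22.3 to 39.5 reads per old library, and the Arf transcript may have had another length in the authors' annotation release. With 10 bases more for that transcript, the lowest old value was 1.20 TPM and the highest young value, in 23C, was 0.89 TPM, and the distal share in 23C was 75.9%.

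**Figure D3:**
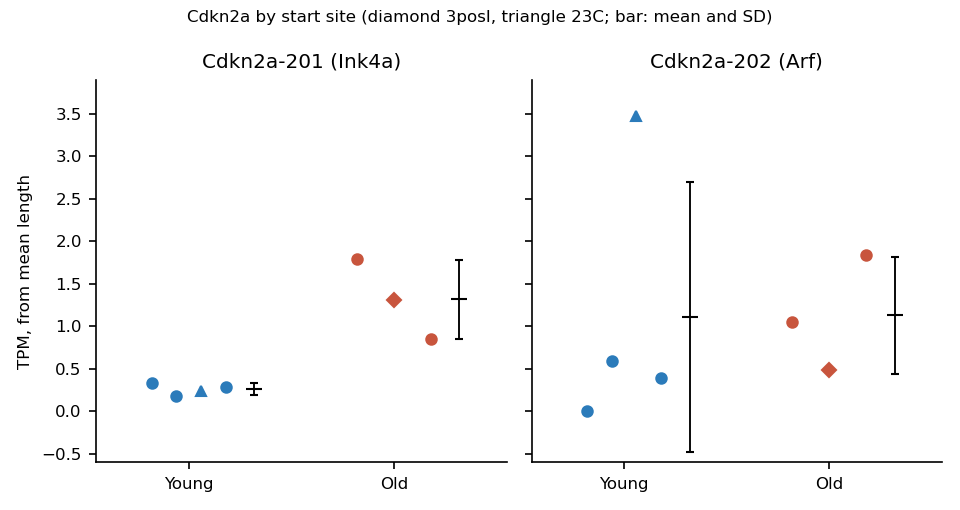
TPM (vertical axis) of the Cdkn2a transcripts from the proximal (left) and distal (right) start site, derived from the deposited mean length, in 4 young (blue) and 3 old (red) libraries, with mean and SD as a black bar, a triangle for 23C and a diamond for 3posI. All old libraries, from 0.85 to 1.79 TPM, lie above all young libraries, from 0.18 to 0.34 TPM, for the proximal start, and 23C is the highest for the distal start at 3.47 TPM.

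Cdkn2b (chr4:89306299-89311039), the neighbor of Cdkn2a that encodes p15, had 37 to 81 expected counts in young and 17, 45 and 50 in old libraries. It was at 1.08, 0.83, 1.57 and 1.74 CPM in the young and 1.49, 0.43 and 0.97 CPM in the old libraries, overlapping, with a log2 fold change of -0.44 ± 0.48 (SE, edgeR adjusted p = 0.661). It was -0.09 without 3posI and -0.89 without 2posI (edgeR adjusted p = 0.942 and 0.447). The nearest protein-coding neighbors of the pair are Mtap, 93390 bases away, which encodes a methylthioadenosine phosphorylase, and Dmrta1, 368397 bases away. Mtap was at 22.4 to 28.4 CPM in young and 21.7 to 26.7 CPM in old libraries. Dmrta1 had 0 counts in 6 libraries and 3 in 4posI.

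Cdkn2c (chr4:109660876-109667189) was at 26.5, 28.8, 29.7 and 43 CPM in the young and 21.8, 16.9 and 28 CPM in the old libraries. Old mouse 4posI lay within the young range and the other 2 old mice lay below it. The log2 fold change was -0.52 ± 0.22 (SE) with an unadjusted edgeR p of 0.0447 and an adjusted p of 0.253, and -0.36 without 3posI (edgeR adjusted p = 0.431). The gene has a short transcript of 1106 bases and a long one of 2471 bases from a start further upstream. The long transcript came to 10.7, 12, 13.8 and 17.5 TPM in young and 6.05, 5.73 and 11.3 TPM in old libraries, and the short one to 8.16 to 13.1 TPM in young and 7.23 to 11.8 TPM in old libraries, and the ages overlapped for both. Cdkn2d (chr9:21288410-21291407) was at 38.8, 34.3, 41.7 and 46.8 CPM in the young and 37.7, 45.7 and 42.4 CPM in the old libraries, all old values inside the young range, with a log2 fold change of 0.05 ± 0.14 (SE, edgeR adjusted p = 0.864).

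Trp53 (chr11:69580359-69591873) was at 86.6, 95.1, 99.5 and 102 CPM in the young and 105, 81.7 and 112 CPM in the old libraries. Library 3posI was the lowest and the other old libraries the highest of all 7. The log2 fold change was 0.05 ± 0.14 (SE, edgeR adjusted p = 0.867), and 0.18 without 3posI, where the ages no longer overlapped (edgeR adjusted p = 0.492). Rb1 (chr14:73183673-73325822) was at 36.4, 35.6, 28.9 and 38.1 CPM in the young and 40.8, 42.9 and 41.9 CPM in the old libraries. Every old library was above every young one, by a small step, with a log2 fold change of 0.27 ± 0.12 (SE, edgeR adjusted p = 0.284) and of 0.25 without 3posI. In TPM, where the length assigned to Rb1 ranged from 1211 to 1730 bases, the ages overlapped. The Rb1 values are uncertain because its expected counts were fractional in all 7 libraries. On the opposite strand, the exons of Rcbtb2 and Lpar6 share 488 and 408 bases with its transcripts, and the receptor gene Lpar6 lies in an intron of Rb1. Rcbtb2 was at 186 to 236 CPM in young and 152 to 255 CPM in old libraries, and Lpar6 at 34.3 to 47.5 and 33.9 to 44.5 CPM. Gm17233 and Mir687, also within Rb1, had at most 7.7 and 0 counts.

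Lmnb1 was at 76.8, 80.9, 76.4 and 92.6 CPM in the young libraries, a narrow range, and at 33, 90.6 and 57.1 CPM in 2posI, 3posI and 4posI. Old mice 2posI and 4posI lay below every young mouse, whereas 3posI lay within the young range. The log2 fold change was -0.44 ± 0.29 (SE, edgeR adjusted p = 0.441). Without 3posI it was -0.86 ± 0.22 (SE), the ages did not overlap, and the edgeR adjusted p was 0.107. Without 2posI it shrank to -0.14 (edgeR adjusted p = 0.755). The retained-intron transcript Lmnb1-202 came to 3.22, 2.79, 1 and 2.45 TPM in young and 0.23, 0.83 and 0.63 TPM in old libraries, at most 7.87% of the gene's abundance in every library. Behind these levels, derived from the mean length, stood estimates of only 22.1 to 64.9 reads per young and 3.8 to 15.5 reads per old library. Of its 659 bases, 119 are not shared with the other transcript. Without 3posI, the members whose ages did not overlap numbered 4 of 10 (Cdkn1a, Trp53, Rb1 and Lmnb1), beside 28.6% of all genes tested in the same 6 libraries.

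**Figure D4:**
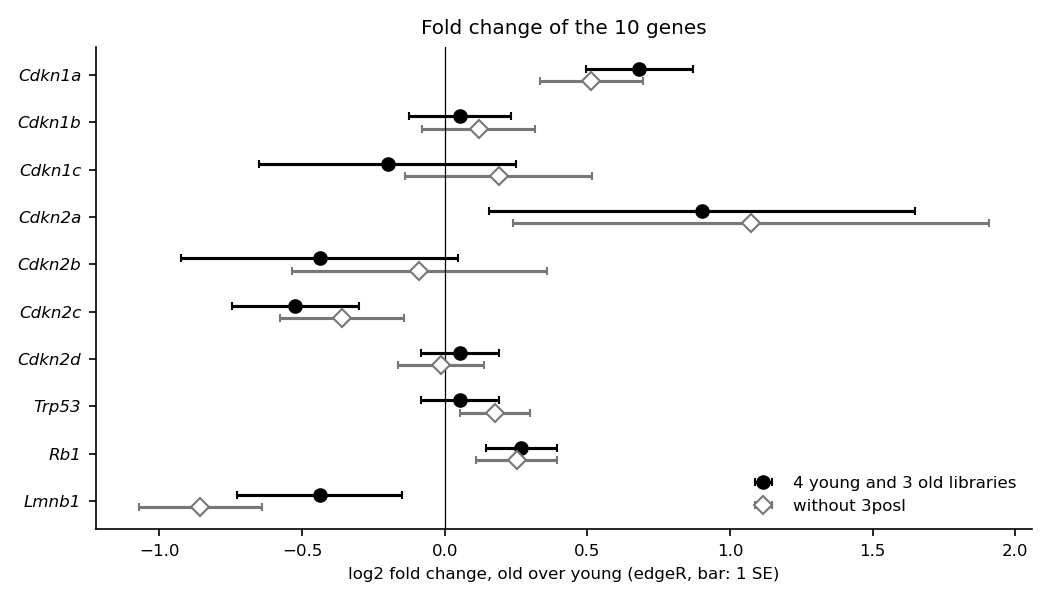
Log2 fold change of old over young mice (horizontal axis, edgeR) for the 10 genes with all 7 libraries (black circles) and without old mouse 3posI (open diamonds), with bars of 1 SE. Cdkn1a and Rb1 lie above 0 in both fits, Lmnb1 moves from -0.44 to -0.86 without 3posI, and Cdkn2a has the widest bar among the fits with all libraries.

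Other genes of the pathway were described from lists, by their counts beside the 0.803% called and the median of -0.01 over all genes tested. Among 20 regulators of the inhibitor genes, 7 were higher and 13 lower in old mice and 1 passed the test, with a median log2 fold change of -0.23 (-0.09 without 3posI). The gene that passed, Bmi1, encodes a Polycomb protein known to repress Cdkn2a. Bmi1 was at 8.66, 9.4, 10.5 and 9.18 CPM in the young and 24.3, 18.3 and 23.3 CPM in the old libraries, far apart, and rose by a log2 fold change of 1.22 ± 0.15 (SE, edgeR adjusted p = 0.0236). It was 1.33 without 3posI, with an edgeR adjusted p of 0.0213. Among 9 tested p53 regulators of 11 listed, 5 were higher and 4 lower (7 and 2 without 3posI), and 1 passed the test. Usp7, which encodes a deubiquitinase of Mdm2 and p53, was at 24.3, 22.3, 19.1 and 25.7 CPM in the young and 49.1, 46.1 and 43.9 CPM in the old libraries. It rose by a log2 fold change of 1.02 ± 0.13 (SE, edgeR adjusted p = 0.0236), and by 1.03 without 3posI (edgeR adjusted p = 0.0295). Leaving out young mouse 14C, 18C, 23C or 29C or old mouse 2posI brought both genes to edgeR adjusted p-values between 0.0511 and 0.109, with log2 fold changes of at least 1.14 for Bmi1 and 0.94 for Usp7.

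Downstream of p53, 23 of 23 listed target genes were tested, of which 8 were higher and 15 lower in old mice and 0 passed the test. Their median log2 fold change was -0.16 with and without 3posI. The smallest p-values were those of Bax, an effector of apoptosis, at 129 to 154 CPM in young and 174 to 249 CPM in old libraries, and of Zmat3, which encodes an RNA-binding protein, at 6.29 to 7.96 and 9.54 to 10.8 CPM. Neither overlapped between the ages, as held for 5 of the 23 targets, beside 17.7% of all genes tested. Their adjusted p-values were 0.123 and 0.126 with edgeR and 0.0257 and 0.0171 with DESeq2. Library 3posI was the highest for both. Without it the log2 fold change of Bax fell from 0.53 to 0.38 and that of Zmat3 from 0.59 to 0.53 (edgeR adjusted p = 0.195 for both). With the assigned transcript length as an offset, the log2 fold change of Zmat3 turned from 0.59 to -0.07. Of 16 cyclin and kinase genes, 6 were higher and 10 lower and 0 passed (median -0.08), and without 3posI 11 were higher and 5 lower (median 0.05). Cdk2, a kinase that Cip/Kip proteins inhibit, was at 54.7 to 60.6 CPM in young and 32.6, 37.8 and 43.5 CPM in old libraries (log2 fold change -0.59 ± 0.13 SE, edgeR adjusted p = 0.0733), and Ccnd2, cyclin D2, at 2.41 to 4.43 CPM in young and 4.56, 13.1 and 5.44 CPM in old libraries (edgeR adjusted p = 0.137). Both passed with DESeq2 (adjusted p = 0.00284 and 0.0239), which called 9.07% of all genes it tested. They were the only 2 of the 16 genes that did not overlap between the ages, beside 17.7% of all genes tested. Library 3posI gave the highest Ccnd2 value, and without it the log2 fold change of Ccnd2 fell from 1.35 to 0.72 (edgeR adjusted p = 0.278). That of Cdk2 was then -0.58 (edgeR adjusted p = 0.105). Of 16 pocket protein and E2F genes, 3 were higher and 13 lower and 0 passed (median -0.20 with and without 3posI). Lin54 and E2f2 were first by p-value and both overlapped.

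Of 22 proliferation genes, 8 were higher and 14 lower in old mice and 0 passed (median log2 fold change -0.14), and without 3posI 15 were higher and 7 lower (median 0.10). Bub1 and Mcm2, genes of the spindle checkpoint and of replication licensing, had the smallest p-values and overlapped between the ages. Of 12 lamina and envelope genes other than Lmnb1, 3 were higher and 9 lower and 0 passed (median -0.17, and -0.20 without 3posI). Zmpste24 and Icmt, enzymes that mature prelamin A and other prenylated proteins, were at 76.7 to 93 and 28.5 to 34.9 CPM in young, and at 62.9 to 68.4 and 20 to 25.8 CPM in old libraries, without overlap. Their edgeR adjusted p-values were 0.125 and 0.176, and Zmpste24 passed with DESeq2 (adjusted p = 0.0231). Without 3posI their log2 fold changes were -0.40 and -0.43 (edgeR adjusted p = 0.167 and 0.217). On this list 4 of 12 genes did not overlap, beside 17.7% of all genes tested. With the transcript length as an offset the log2 fold change of Icmt turned from -0.40 to 0.07. Of 33 genes for secreted or surface products linked to senescence, 14 were higher and 19 lower and 0 passed (median -0.17, and -0.16 without 3posI). Tgfb1, transforming growth factor beta, was at 19.5 to 36.9 CPM in young and 10, 10.7 and 15.5 CPM in old libraries, and Icam1, an adhesion receptor, at 447 to 568 and 229 to 372 CPM. Neither overlapped between the ages, as held for 5 of the 33 genes, beside 17.7% of all genes tested. Their log2 fold changes were -1.15 ± 0.26 and -0.84 ± 0.19 (SE, edgeR adjusted p = 0.0778 and 0.0801). Without 3posI these were -1.07 and -0.70 (edgeR adjusted p = 0.124 and 0.118). Both passed with DESeq2, Tgfb1 also with the length offset or without a filter on low counts, and Icam1 with quality weights. Beside these lists stood the marker lists of other cells. All 7 of 7 tested monocyte, T cell, border macrophage and neutrophil markers were higher in old mice, with 0 passing the test. Without 3posI 6, 7, 5 and 6 of 7 were, with 1 monocyte marker passing. In the same order, the median log2 fold changes were 4.22, 3.94, 1.14 and 1.11, and 1.22, 3.52, 0.33 and 0.75 without 3posI. Of 5 endothelial markers 5 were lower in old mice (4 without 3posI), and of 8 tested microglial markers 6 were lower (4 without 3posI). Their medians were -0.69 and -0.36 (-0.74 and -0.04 without 3posI), with 0 passing the test. The part of any of these cells in the differences above was not tested.

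**Figure D5:**
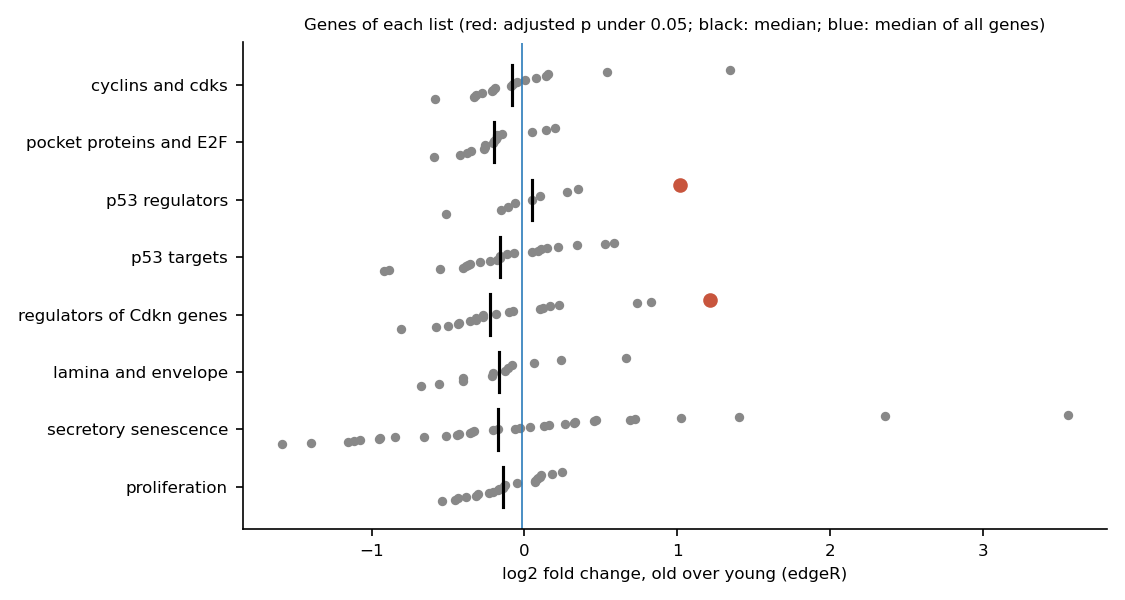
Log2 fold change of old over young mice (horizontal axis, edgeR, 7 libraries) of each tested gene in 8 pathway lists, with the median of each list as a black line and the median of all genes, -0.01, as a blue line. Red points mark the 2 genes past an adjusted p of 0.05, Usp7 and Bmi1, and the medians of 7 of the 8 lists lie below the blue line (5 of 8 lay below the median of all genes when 3posI was left out).

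The genes whose pattern was most like that of Cdkn1a were sought among 8146 genes with a mean of at least 10 CPM, by Pearson's r of log2 CPM over the 7 libraries, as a description. Tram2, which encodes a protein of the endoplasmic reticulum, had an r of 0.98 and ranged from 12.9 to 17.8 CPM in young and from 17.7 to 24.8 CPM in old libraries. Ngdn, with an r of 0.98, ranged from 30.6 to 34.5 and from 37.2 to 47.6 CPM, and Atp11a, a phospholipid flippase gene, with an r of 0.98, from 9.49 to 13.4 and from 15.7 to 21.6 CPM. All 3 were highest in 3posI, as was Cdkn1a, and the libraries share the depth and marker differences given above.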

How the data were processed

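After quality control with FastQC 0.11.5, the authors aligned trimmed reads to GRCm38 using STAR and estimated gene abundance by RSEM with GENCODE m15. Versions of both were not given in the sources used here. Libraries were made by a low-input, non-stranded SMARTseq2 protocol on polyadenylated RNA. No molecular identifiers are named, so PCR copies count as separate reads. The deposited expected counts are estimates that RSEM divides among genes, not normalized. They were rounded to whole numbers. The TPM values were computed by the authors by length and library total. The deposited FPKM values were not used. The lengths, deposited as other columns, are means over transcripts weighted by abundance. Genes with more than 10 expected counts in 1 library or more were kept (18173), and 614 on chromosomes X, Y and M removed, leaving 17559. The ages were compared with edgeR 4.0.16 (TMM, quasi-likelihood F-test, Benjamini-Hochberg adjustment), in R 4.3.3. limma 3.58.1 tested log2(TPM + 0.1), and DESeq2 1.42.0 and limma-voom were alternatives. The tests were checked on simulated counts. TMM factors lay between 0.952 and 1.05. Fits that leave out a library drop it from the filter and the scaling too. CPM are TMM-scaled. Gene positions and names were taken from GENCODE vM21 (50462 of 50686 identifiers matched). The named genes were all members, the genes of each pathway list past the threshold or else the 2 with the smallest p, the most abundant gene of each marker list, overlapping and neighboring genes, the imprinted domain and the 3 genes most like Cdkn1a. Members and lists were chosen with earlier results of these data known. Each library is 1 mouse, the labels pair no mice and name no batch, and p-values weigh the age difference against the spread between mice. A further microglial marker is not reported here.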

Additional observations from a re-analysis of the deposited data

Results flagged for a closer look

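In young mouse 23C, Cdkn2a stood far from the other young mice, at 2.22 CPM against 0.19, 0.43 and 0.45 CPM, a gap of 0.875 of the whole range of the group (past Dixon's 95% critical value for 4 samples). Zmat3 in the same mouse, at 7.96 CPM against 6.29 to 6.32 CPM, had a gap of 0.978 of the range. Among 24 young groups tested, about 1.2 such gaps are expected by chance and 2 were found. The 3 old mice were too few for this test.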

How the results depend on the processing

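No paired analysis was possible because the labels give no replicate numbers or pairs. The 10 members were refitted under 18 alternatives each, 180 fits in all, of which 1 passed the threshold (Cdkn1a with DESeq2, adjusted p = 0.0171) and 172 kept the direction. Members called were 0 in the other fits and 1 with DESeq2. The sign turned for Cdkn1b without 23C (log2 fold change -0.075) or 2posI (-0.010), for Cdkn1c without 3posI (0.19), for Cdkn2d on log2 TPM (-0.021) and without 18C (-0.013) or 3posI (-0.013), and for Trp53 on log2 TPM (-0.030) and without 4posI (-0.046). With 1 library left out, they ranged from -0.075 to 0.16, from -0.52 to 0.19, from -0.013 to 0.13 and from -0.046 to 0.18 for these 4 genes. With the effective length as an offset, it turned for Zmat3 (-0.067) and Icmt (0.069), and Tgfb1 passed the threshold (-1.38, adjusted p = 0.042), as it did without a filter (adjusted p = 0.039). Icam1 passed with quality weights (adjusted p = 0.0353), and both passed with DESeq2 (adjusted p = 0.00143 and 0.00122). Cdk2, Ccnd2, Bax, Zmat3 and Zmpste24 also passed with DESeq2. Without any change of call, quality weights moved Cdkn2a from 0.90 to 2.18, Cdkn2b from -0.44 to -0.25, Lmnb1 from -0.44 to -0.70 and Mcm2 from -0.44 to -0.20, limma-voom moved Cdkn2a to 1.42 and Cdkn1c from -0.20 to -0.33, the length offset moved Cdkn1c to -0.0042, and log2 TPM moved Lmnb1 to -0.68. With 1 library left out, Lmnb1 ranged from -0.86 to -0.14, Cdkn2b from -0.89 to -0.09 and Cdkn2a from 0.58 to 2.10. All genes called were 141, and 318 by limma-voom with quality weights, 1399 by DESeq2, 288 without a filter on low counts, and between 1 and 159 when 1 library was left out (1 without 14C, 18C or 2posI, 2 without 29C, 14 without 23C, 85 without 4posI). Genes called on the pathway lists were 2, and 4 with quality weights, 16 with DESeq2, 4 without a filter, and 0 to 4 when 1 library was left out. DESeq2 also called 9.07% of all genes it tested, beside 0.803% with edgeR, so the rise on the lists went with a rise over all genes. Cdkn1a averaged 86.2% of the summed inhibitor TPM, 76.6% when expected counts were divided by the length of all exons, and 85.1% to 87.1% when 1 library was left out. The causes were not tested. TPM of members gave 0 calls in each of its fits. Members not overlapping numbered 2, and 4 without 3posI, an alternative added after the data were seen. Cdkn2a and Cdkn2b had the lowest counts of the members, 9 to 113 and 17 to 81.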

Other observations

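Of the Polycomb genes on the regulator list, named after their values were seen, Rnf2 and Ring1, whose products are the E3 ligase partners of Bmi1 in Polycomb repressive complex 1, were at 82.6 to 94.6 and 11.3 to 20.4 CPM in young and at 50.6 to 64.5 and 8.02 to 9.05 CPM in old libraries, without overlap. On the whole list 4 of 20 genes did not overlap, beside 17.7% of all genes tested. The log2 fold changes of Rnf2 and Ring1 were -0.58 and -0.80, and neither passed the test (edgeR adjusted p = 0.0736 and 0.131). Ezh2, Cbx7 and Cbx8, with log2 fold changes of -0.19, -0.32 and -0.36, overlapped between the ages (edgeR adjusted p = 0.673, 0.618 and 0.486).

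Among the secreted products, also named after their values were seen, the hypoxia-responsive growth factor Vegfa was at 0.6 to 1.73 CPM in young libraries and at 2.77, 35.4 and 3.65 CPM in 2posI, 3posI and 4posI (edgeR adjusted p = 0.0973). The chemokine Ccl5 was at 9.94 to 36.1 CPM in young and 44.9 to 83.2 CPM in old libraries (edgeR adjusted p = 0.171), and Csf1, a growth factor of microglia, at 206 to 236 CPM in young and 78, 61.4 and 173 CPM in old libraries (edgeR adjusted p = 0.132). The ages did not overlap for any of these 3, and none passed the test. On the whole list, 5 of 33 genes did not overlap, beside 17.7% of all genes tested.

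The mean transcript length did not overlap between the ages in 4 of the 9 members with more than 1 transcript, shorter in old mice for Cdkn1a, Cdkn2c and Trp53 and longer for Lmnb1, beside 18.9% of 12012 tested genes with more than 1 transcript.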
